A study of Homo sapiens with 6 samples.

Results

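Oxidative phosphorylation is run by a chain of protein complexes in the inner mitochondrial membrane. Complex II, succinate dehydrogenase, oxidises succinate in the citric acid cycle and feeds electrons to ubiquinone; complex III, the cytochrome bc1 complex, passes them to cytochrome c, and complex IV, cytochrome c oxidase, passes them to oxygen. Complex V, the ATP synthase, uses the proton gradient that complexes III and IV help to build. Complex II is built from nuclear genes alone, whereas complexes III, IV and V also hold subunits encoded in mitochondrial DNA (mtDNA), so their nuclear and mitochondrial transcripts come from different transcription machineries. In liver, these complexes serve both energy supply and the oxidation of fatty acids and amino acids.

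The genes described here are the nuclear genes of complexes II to V, with cytochrome c, chosen by symbol from a deposited gene table: SDHA to SDHD and SDHAF genes, UQCR and UQCC genes, CYC1, CYCS, COX genes with a number, and ATP5 genes, without symbols that end like pseudogenes. This gave 66 rows and, with 1 row kept per symbol, 64 genes of 57773. The table ends some symbols in a running number, and SDHD_1 and UQCR11_2 are printed as given. Of the 64, 61 belong to complexes II to V or cytochrome c. The other 3 match by name only: ATP5SL acts in the assembly of complex I, ATP5J2-PTCD1 is a readthrough transcript and COX10-AS1 is a divergent RNA. It lies beside COX10 on the opposite strand without overlapping it. The measurements are RNA sequencing of Hep3B cells, a human hepatocellular carcinoma line. One group of 3 libraries was transfected with siRNA against SMARCA4 (si-SMARCA4) and the other group of 3 with control siRNA (si-Cont). SMARCA4 encodes BRG1, the motor protein with which SWI/SNF complexes move nucleosomes. The siRNA sequences, their dose and the time after transfection were not stated in the labels, nor whether the replicates came from separate cultures. The p-values therefore reflect the spread among these libraries alone, which may be technical.

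SMARCA4 had 3.80, 3.78 and 4.01 FPKM in si-SMARCA4, against 15.7, 19.5 and 16.6 FPKM in si-Cont. FPKM are reads scaled by gene length and by sequencing depth, so an order of levels between genes also depends on the length given to each gene. Reads over genes numbered from 19084308 to 22719014 per library, which was 62.8% to 64.3% of the FPKM denominator in si-SMARCA4 and 65.5% to 69.5% in si-Cont. One library stood apart within its group: on the second principal component (8.58% of the variance) si-Cont replicate 2 scored -11.0, while the others scored -1.83 to 5.70. Counts are therefore also given without it. The hepatocyte and hepatoma markers were all measured (9 of 9), with 2242 to 2367 FPKM in sum in si-SMARCA4 and 3159 to 3529 FPKM in si-Cont. Of these, 6 were lower and 3 higher in si-SMARCA4. Of the other markers, VWF, CDH5 and KDR of endothelium were at 0 in all 6 libraries, while 4 of 6 leukocyte markers lay under 1 FPKM, with PTPRC and CD3E at most 0.0626 FPKM. LYZ, lysozyme of myeloid cells, averaged 15.95 ± 0.345 FPKM in si-SMARCA4 and 16.4 ± 1.17 FPKM in si-Cont. The cholangiocyte markers summed to 48.6 to 51.5 FPKM in si-SMARCA4 and 62.6 to 65.2 FPKM in si-Cont. Among them KRT19, a keratin, was lower at 38.1 ± 1.11 FPKM in si-SMARCA4 and 50.9 ± 2.98 FPKM in si-Cont, and SOX9 averaged 11.3 ± 0.376 FPKM in si-SMARCA4 and 12.1 ± 2.10 FPKM in si-Cont. Of 5 fibroblast and stellate cell markers 4 lay under 1 FPKM, and LUM, a stromal proteoglycan, averaged 11.4 ± 0.23 FPKM in si-SMARCA4 and 7.25 ± 0.596 FPKM in si-Cont (SD, n = 3 each). CD68, a lysosomal protein of macrophages, averaged 10.6 ± 0.328 FPKM in si-SMARCA4 and 17.2 ± 1.87 FPKM in si-Cont. The part of these marker levels in the results below was not tested.

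Most respiratory chain subunits were lower after SMARCA4 siRNA, and SDHD_1 had the largest fall, to 42.0% of its control level. The log2 fold changes of the other subunits called lower lay between -0.51 (ATP5C1) and -0.18 (SDHB). Of the 64 genes, 57 reached a mean of 1 FPKM and were tested. Limma called 40 of them lower (70.2%) and 4 higher (7.02%) at an adjusted p of 0.05, while over all 11123 genes tested 33.6% were lower and 22.4% higher. The median log2 fold change of FPKM + 1 was -0.25 for these 57 genes and -0.04 for all genes tested. The 3 si-SMARCA4 values lay below all 3 si-Cont values for 40 of the 57 genes, against 36.6% of all genes tested. Without si-Cont replicate 2 the counts were 45 lower and 2 higher. The groups differ in the share of reads over genes, and with median-ratio scaling the counts were 39 lower and 6 higher with a median of -0.20, while those over all genes became 3322 lower and 3254 higher. In bulk RNA, a lower level in every cell and the loss of the transcript from some cells cannot be told apart.

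**Figure D1:**
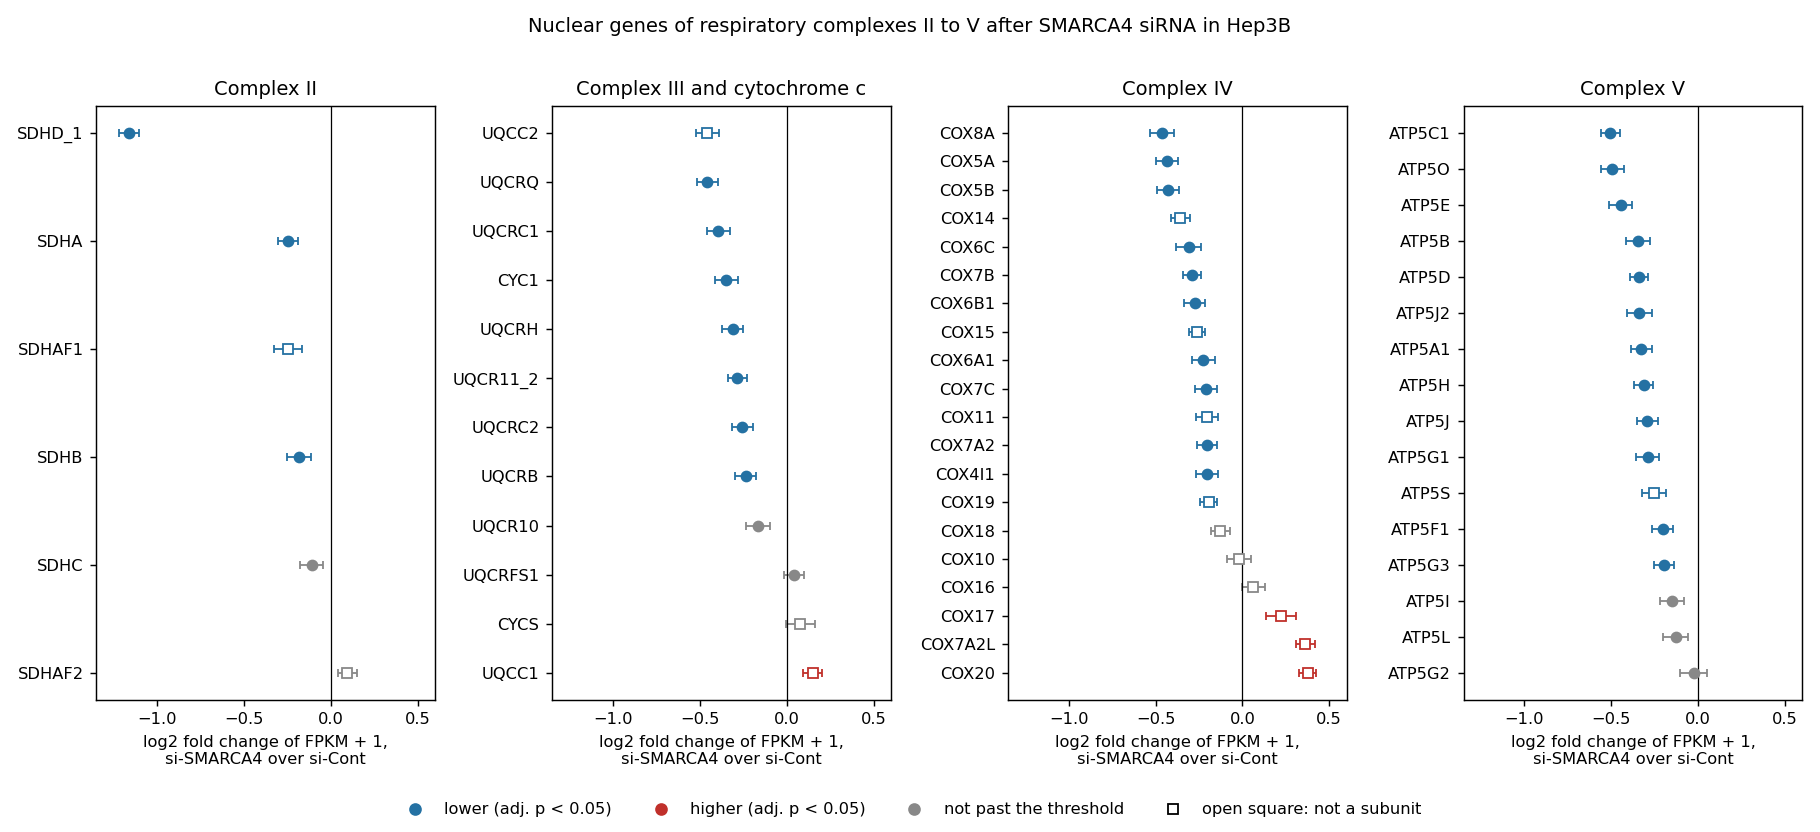
Log2 fold change of FPKM + 1 (si-SMARCA4 over si-Cont, x axis) of each tested gene of complexes II to V, with its standard error (bars) from limma over 3 libraries a group. Filled circles are subunits and open squares are assembly factors, cytochrome c or the coupling factor ATP5S; blue is lower, red higher and grey not past an adjusted p of 0.05. Nearly all subunits lie between -0.51 and 0.04, and SDHD_1 lies apart at -1.16.

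Subunits and assembly factors were also counted apart. Of 38 tested subunits, 32 were lower, 0 were higher and 6 did not pass, with a median log2 fold change of -0.29. Of 14 tested assembly factors, 6 were lower, 4 were higher and 4 did not pass, with a median of -0.07. COX7A2L, a relative of the subunit COX7A2, was counted as an assembly factor and was among the 4 higher. The count of 0 higher subunits depends on that assignment. The shares of assembly factors, 42.9% lower and 28.6% higher, lay near those over all genes tested (33.6% and 22.4%). The difference between the 2 kinds was not tested. By complex, 4 of 6 genes of complex II were lower (median -0.21), as were 8 of 12 of complex III with cytochrome c (-0.27), 14 of 20 of complex IV (-0.21) and 13 of 16 of complex V (-0.30). Summed over its genes, complex V came to 582, 551 and 579 FPKM in si-SMARCA4, against 733, 652 and 742 FPKM in si-Cont. Complex IV came to 699, 663 and 702 FPKM in si-SMARCA4, against 853, 783 and 883 FPKM in si-Cont. Complex III with cytochrome c summed to 392, 376 and 393 FPKM in si-SMARCA4, against 478, 422 and 471 FPKM in si-Cont. Complex II, the smallest, summed to 84.4, 79.9 and 82.1 FPKM in si-SMARCA4, against 105, 93.5 and 106 FPKM in si-Cont. In each of the 4 sums every si-SMARCA4 library lay below every si-Cont library, and si-Cont replicate 2 was the lowest of its group. The genes here are also short, with a median length of 2537 bases in the recovered table against 4610 bases over all genes tested. With replicate number as a block, 44 were lower and 4 higher. With that block and a trend on gene length removed, 39 were lower and 6 higher, with a median of -0.20.

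**Figure D2:**
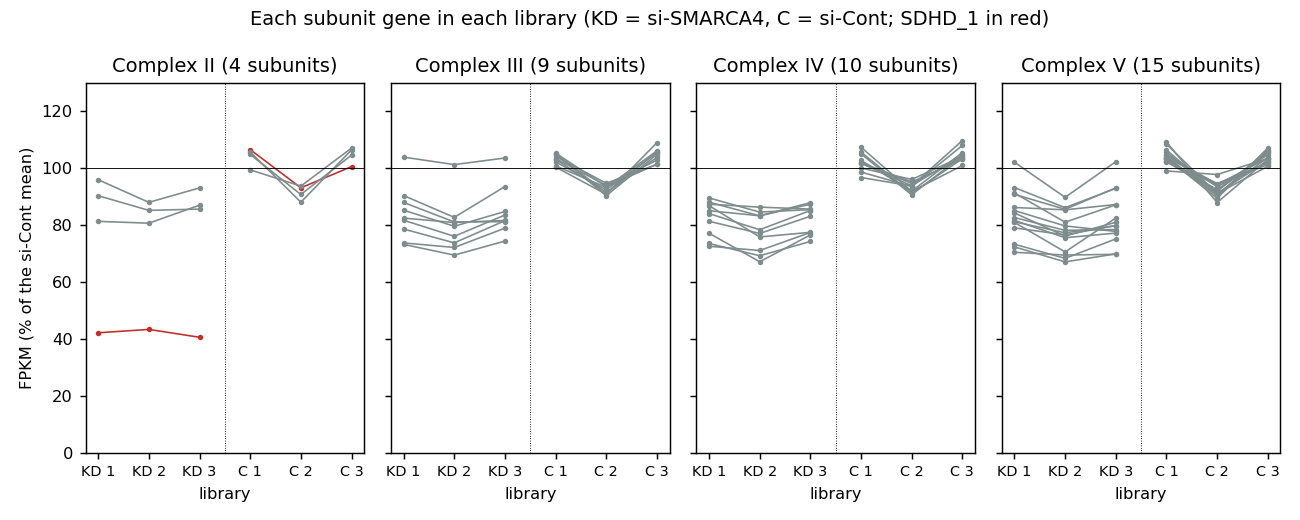
FPKM of each tested subunit in each of the 6 libraries (x axis, si-SMARCA4 marked KD, left of si-Cont marked C) as a percentage of its si-Cont mean (y axis), 1 line per gene and group, by complex. SDHD_1 (red) lies near 42.0% of its si-Cont mean in every si-SMARCA4 library, far below the other subunits.

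**Figure D3:**
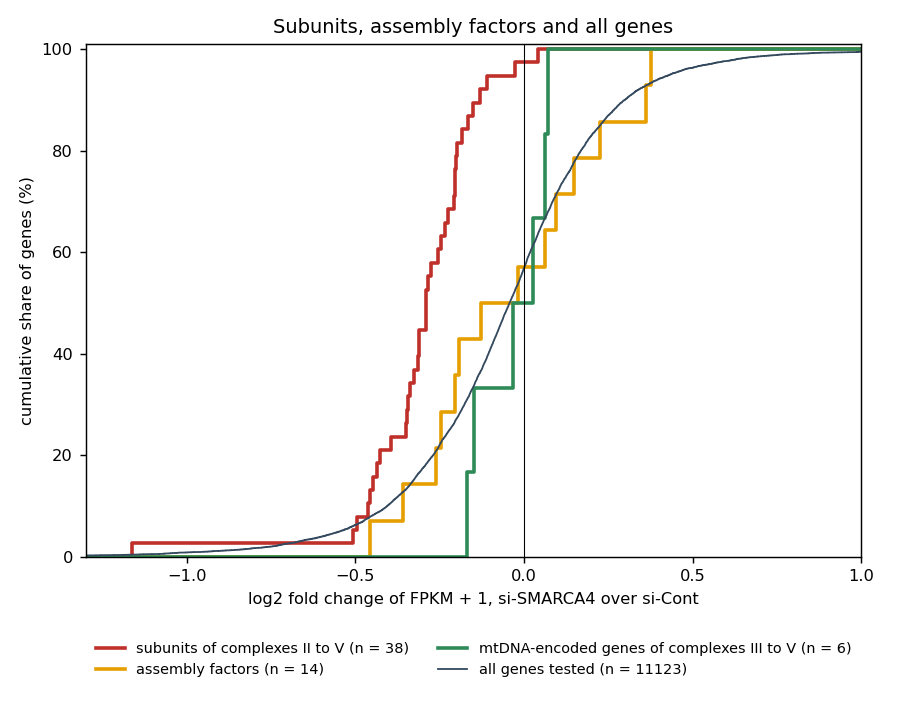
Cumulative share of genes (y axis, %) by log2 fold change of FPKM + 1 (si-SMARCA4 over si-Cont, x axis) for the 38 subunits, 14 assembly factors, 6 mtDNA-encoded genes and all 11123 genes tested. The subunit curve lies left of the others over most of its range (median -0.29), while that of the assembly factors (median -0.07) runs close to the curve of all genes (median -0.04).

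Complex II was marked by 1 gene. SDHD_1 (ENSG00000204370), the small membrane anchor that helps to bind heme and ubiquinone, had 8.76, 9.01 and 8.43 FPKM in si-SMARCA4, against 22.1, 19.4 and 20.9 FPKM in si-Cont. All 3 si-SMARCA4 libraries were lower than every si-Cont library and close to each other. The means were 8.73 ± 0.287 FPKM in si-SMARCA4 and 20.8 ± 1.40 FPKM in si-Cont (SD, n = 3 each), which is 42.0% of si-Cont, from 548 to 1552 reads per library. Its log2 fold change was -1.16 (SE 0.06, limma adjusted p = 8.75e-08; exact permutation p = 0.1, the smallest that 3 against 3 libraries can give). It ranked 46 from the lowest of the 11123 genes tested, whereas the next lowest of the 57 genes was at -0.51. Over the 19 alternatives that gave SDHD_1 a value, its log2 fold change lay between -1.24 and -0.91, and it passed the threshold in each. The gene lies at chr11:112086773-112120013 (GRCh38, plus strand). It shares 26 exon bases with TIMM8B on the opposite strand, an import chaperone that averaged 16.9 ± 1.17 FPKM in si-SMARCA4 and 22.3 ± 1.75 FPKM in si-Cont, and was also lower (log2 fold change -0.38, limma adjusted p = 0.000724).

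The sequences of SDHD_1 are shown because it had the largest fall. Its promoter, from 250 bases before to 50 after the RefSeq start, lies at chr11:112086623-112086922 (GRCh38.p14, plus strand), 5′ to 3′, with matches on either strand to GCATGCGC (the core of the NRF1 motif) and CCGGAAG (an ETS motif bound by GABPA) in capitals.
SDHD_1 promoter: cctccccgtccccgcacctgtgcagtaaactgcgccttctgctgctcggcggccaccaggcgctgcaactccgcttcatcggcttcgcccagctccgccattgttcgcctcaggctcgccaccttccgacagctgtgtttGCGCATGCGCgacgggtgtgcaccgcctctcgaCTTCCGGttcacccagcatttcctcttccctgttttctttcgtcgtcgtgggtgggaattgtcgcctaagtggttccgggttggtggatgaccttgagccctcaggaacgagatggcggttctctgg
The longest annotated 3′ UTR of SDHD_1 also holds TGTCCA, a sequence that an earlier analysis of these data picked from the same fold changes, so it is shown as a description only. The site lies in 1 of 7 annotated coding transcripts, and SDHA and SDHC carry it too, SDHC at 4 places of which 1 is shown. They are given for comparison because these 3 subunits of 1 complex changed by unlike amounts. The windows lie at chr11:112095648-112095677 for SDHD_1, chr5:256471-256500 for SDHA and chr1:161366653-161366682 for SDHC (GRCh38, plus strand), with TGTCCA, and a preceding C where there is one, in capitals.
SDHD_1 site: tctaaaacaatCTGTCCAcaaatataaaac
SDHA site: agctcatgcatgTGTCCAtgtcataactgt
SDHC site: ctagatgtgtgCTGTCCAgcatggagccgg

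The other subunits of complex II changed far less. SDHA, the flavoprotein that oxidises succinate, had 10.4, 10.3 and 11.1 FPKM in si-SMARCA4, against 12.7, 12.0 and 13.7 FPKM in si-Cont, with no overlap (log2 fold change -0.25, SE 0.06, limma adjusted p = 0.00368). Near-identical pseudogene copies make reads of SDHA uncertain, and of 113 pseudogene rows of this family of symbols 106 were at 0, with SDHAP1 the highest at 2.90 FPKM. SDHB, the iron-sulfur subunit, had 13.6, 12.8 and 12.9 FPKM in si-SMARCA4, against 15.9, 13.2 and 15.97 FPKM in si-Cont, so that si-Cont replicate 2 lay within the si-SMARCA4 range. Its log2 fold change was -0.18 (SE 0.07, limma adjusted p = 0.0426), and the call was lost under each of the 3 rescalings (median-ratio, upper-quartile and quantile), with no filter on low values and without any 1 library other than si-Cont replicate 2 (limma adjusted p 0.0573 to 0.150 over the 5 such fits). SDHC, the other membrane anchor, had 30.8, 28.2 and 29.8 FPKM in si-SMARCA4, against 33.6, 29.1 and 33.5 FPKM in si-Cont (log2 fold change of -0.11, limma adjusted p = 0.176). The groups of SDHC overlapped through si-Cont replicate 2, and without that library it passed (-0.18, limma adjusted p = 0.00398). By mean FPKM, the order in si-SMARCA4 was SDHC (29.6 FPKM), SDHB (13.1), SDHA (10.6) and SDHD_1 (8.73), and in si-Cont it was SDHC (32.1), SDHD_1 (20.8), SDHB (15.0) and SDHA (12.8), with SDHB and SDHA overlapping across si-Cont libraries. This order depends on the gene lengths. SDHA had 2815 to 3612 reads per library over 8383 bases, and SDHB had 948 to 1288 reads over 2462 bases.

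**Figure D4:**
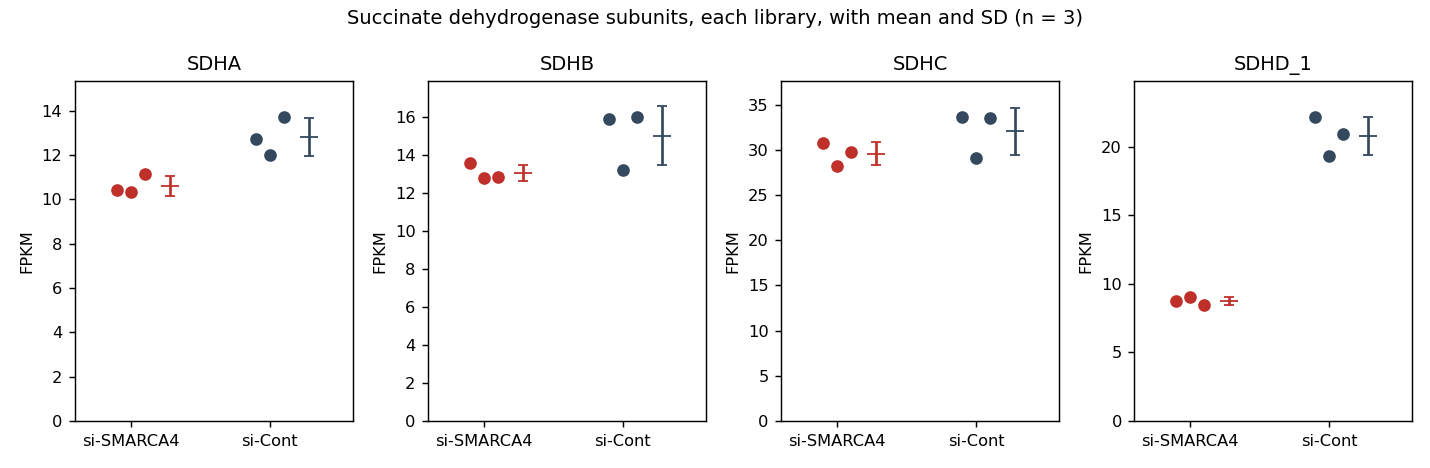
FPKM (y axis, from 0) of the 4 succinate dehydrogenase subunits in each library (points), with the mean and SD of 3 libraries beside them, si-SMARCA4 left and si-Cont right. SDHD_1 lies at 8.43 to 9.01 FPKM in si-SMARCA4 and at 19.4 to 22.1 FPKM in si-Cont, while the groups of SDHB and SDHC overlap.

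Of the assembly factors of complex II, 1 was lower and 1 did not pass. SDHAF1, which helps to place iron-sulfur clusters in SDHB, had 9.44, 7.99 and 7.84 FPKM in si-SMARCA4, against 9.49, 9.68 and 11.4 FPKM in si-Cont (log2 fold change of -0.25, SE 0.08, limma adjusted p = 0.0199). That call was lost without si-SMARCA4 replicate 2 or 3 or si-Cont replicate 3 (limma adjusted p 0.0732 to 0.0783), and leaving out any 1 of those 3 libraries left 2 of the 6 complex II genes called lower. SDHAF2, which attaches FAD to SDHA, averaged 11.7 ± 0.298 FPKM in si-SMARCA4 and 10.9 ± 0.685 FPKM in si-Cont (log2 fold change of 0.09, limma adjusted p = 0.160) and was called higher under each of the 3 rescalings (0.14 to 0.16).

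In complex III both core proteins, 1 of 2 nuclear electron-carrying subunits and 4 of 5 small subunits were lower, while UQCRFS1 and UQCR10 did not pass. The share called lower over all genes tested was 33.6%. UQCRQ, a small subunit next to cytochrome b, had 36.2, 34.3 and 36.8 FPKM in si-SMARCA4, against 52.1, 46.2 and 50.1 FPKM in si-Cont, with the groups far apart (log2 fold change -0.46, SE 0.06, limma adjusted p = 8.51e-05). UQCRC1, a core protein, had 16.1, 15.8 and 17.3 FPKM in si-SMARCA4, against 22.0, 19.9 and 23.8 FPKM in si-Cont (-0.39, SE 0.07, limma adjusted p = 0.000536). CYC1, the heme protein cytochrome c1, had 31.9, 29.9 and 33.1 FPKM in si-SMARCA4, against 41.9, 37.1 and 42.9 FPKM in si-Cont (-0.35, SE 0.07, limma adjusted p = 0.00106). For each of these 3 genes every si-SMARCA4 library lay below every si-Cont library. UQCRH is the hinge protein and the highest in FPKM of the complex III subunits chosen by symbol. It had 61.3, 57.1 and 62.7 FPKM in si-SMARCA4, against 77.6, 70.5 and 77.2 FPKM in si-Cont (-0.31). UQCR11_2 (-0.28), the core protein UQCRC2 (-0.26) and UQCRB (-0.24), a small subunit close to the ubiquinone site, were also lower. These 7 subunits kept their call under all alternatives that gave them a value. UQCR10, another small subunit, had 39.3, 36.0 and 40.7 FPKM in si-SMARCA4, against 45.7, 39.3 and 45.6 FPKM in si-Cont, so the groups overlapped (-0.17, limma adjusted p = 0.0702). UQCR10 was called lower with the replicate number as a block (limma adjusted p = 0.00780) and without si-Cont replicate 2 (0.00197). UQCRFS1, the Rieske iron-sulfur protein that takes electrons from ubiquinol, averaged 48.5 ± 0.678 FPKM in si-SMARCA4 and 47.1 ± 3.04 FPKM in si-Cont (log2 fold change of 0.04, limma adjusted p = 0.571). It was called higher under each of the 3 rescalings (0.09 to 0.19) and stood at -0.01 without si-Cont replicate 2.

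The pair of UQCC genes, whose proteins bind and stabilise newly made cytochrome b, moved in opposite directions. UQCC2 had 31.8, 31.3 and 33.8 FPKM in si-SMARCA4, against 46.9, 40.5 and 47.0 FPKM in si-Cont (log2 fold change -0.46, SE 0.07, limma adjusted p = 0.000185). This was the largest fall of the complex III genes chosen by symbol. UQCC1 had 1.89, 1.95 and 1.85 FPKM in si-SMARCA4, against 1.78, 1.52 and 1.53 FPKM in si-Cont (0.15, SE 0.06, limma adjusted p = 0.0412), from 307 to 441 reads per library. The groups of UQCC1 did not overlap, but its call was lost without any 1 library other than si-Cont replicate 1 (limma adjusted p 0.0705 to 0.124). UQCC2 shares 1025 exon bases on the opposite strand with ITPR3, a calcium channel gene that was higher (18.6 ± 0.556 FPKM in si-SMARCA4 and 15.9 ± 1.97 FPKM in si-Cont), and since the strand of the reads is not known here, the split of reads between the pair is uncertain. CYCS, the carrier cytochrome c, had 57.8, 58.0 and 52.1 FPKM in si-SMARCA4, against 60.7, 48.5 and 50.1 FPKM in si-Cont, with si-Cont replicate 1 above and the other si-Cont libraries below all si-SMARCA4 values (log2 fold change 0.08, limma adjusted p = 0.443). The promoter of UQCC2 is shown as that of the largest fall among these complex III genes, at chr6:33711651-33711950 (GRCh38.p14, minus strand, 5′ to 3′). Capitals mark GCATGCGC read on the other strand and, near the end, AAGATGGC, a motif of the factor YY1.
UQCC2 promoter: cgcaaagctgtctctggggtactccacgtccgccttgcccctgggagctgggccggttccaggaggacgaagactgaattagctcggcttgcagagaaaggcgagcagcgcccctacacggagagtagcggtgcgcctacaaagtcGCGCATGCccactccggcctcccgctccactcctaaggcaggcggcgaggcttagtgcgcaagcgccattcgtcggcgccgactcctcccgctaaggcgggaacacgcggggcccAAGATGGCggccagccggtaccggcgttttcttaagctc

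Complex IV was lower in each of its 10 tested nuclear subunits, while of its 10 tested assembly factors 4 were lower and 3 higher. COX7A2L, which was higher, was counted among the latter. The shares over all genes tested were 33.6% lower and 22.4% higher. COX8A, a small subunit that spans the membrane, had 141, 133 and 142 FPKM in si-SMARCA4, against 185, 179.8 and 210.4 FPKM in si-Cont (log2 fold change of -0.46, SE 0.07, limma adjusted p = 0.000277). COX5A, which binds a thyroid hormone metabolite, had 37.8, 32.9 and 37.5 FPKM in si-SMARCA4, against 49.0, 47.1 and 51.0 FPKM in si-Cont (-0.43, SE 0.06, limma adjusted p = 0.000213). COX5B, a zinc-binding subunit, had 30.6, 29.9 and 32.6 FPKM in si-SMARCA4, against 41.5, 39.4 and 45.5 FPKM in si-Cont (-0.43, SE 0.06, limma adjusted p = 0.000205). In these 3 genes the lowest si-Cont library was well above the highest si-SMARCA4 library. COX6C (-0.31), COX7B (-0.29) and COX6B1 (-0.28), which closes the complex on the intermembrane side, followed. COX6A1 (-0.22), COX7C (-0.21), COX7A2 (-0.20) and COX4I1 (-0.20), the regulatory subunit that binds ATP, fell least. COX4I1 had 34.2, 33.8 and 33.5 FPKM in si-SMARCA4, against 41.1, 35.5 and 40.9 FPKM in si-Cont, without overlap (SE 0.06, limma adjusted p = 0.0182). COX6A1 had 133, 129.8 and 137 FPKM in si-SMARCA4, against 160.1, 143 and 164 FPKM in si-Cont (SE 0.07, limma adjusted p = 0.0143). The calls of the 4 smallest falls were lost in some fits without 1 library: without si-SMARCA4 replicate 2 for all 4, without si-Cont replicate 3 for all 4, without si-Cont replicate 1 for COX4I1, COX6A1 and COX7C, without si-SMARCA4 replicate 3 for COX4I1 and COX7A2 and without si-SMARCA4 replicate 1 for COX6A1. With no filter on low values COX4I1, COX6A1 and COX7C lost their call, and after quantile normalization COX4I1 stood at -0.063 (limma adjusted p = 0.134) and COX6A1 at -0.044 (limma adjusted p = 0.172). With si-SMARCA4 replicate 2 left out, 9 of the 20 complex IV genes were called lower. The promoter of COX8A, the largest fall of the complex IV genes chosen by symbol, lies at chr11:63974370-63974669 (GRCh38.p14, plus strand, 5′ to 3′). It is shown with its match to CCGGAAG, read on the other strand, in capitals.
COX8A promoter: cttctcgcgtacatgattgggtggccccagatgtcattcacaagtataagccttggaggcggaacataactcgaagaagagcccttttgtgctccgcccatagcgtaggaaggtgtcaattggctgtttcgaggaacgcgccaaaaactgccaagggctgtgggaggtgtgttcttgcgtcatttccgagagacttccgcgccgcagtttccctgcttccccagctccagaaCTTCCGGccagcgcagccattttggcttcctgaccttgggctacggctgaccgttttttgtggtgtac

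Only the widely expressed isoforms of complex IV were detected above a mean of 1 FPKM. The alternative forms COX4I2, known from lung, COX6A2, known from heart and skeletal muscle, and COX7B2 and COX8C, known from testis, were at 0 in all 6 libraries. COX6B2, a testis form, had 0.0242, 0.042 and 0.0358 FPKM in si-SMARCA4, against 0.0166, 0.0281 and 0.0174 FPKM in si-Cont, from 2 to 5 reads per library. COX7A1, the muscle form, had at most 2 reads in any library. ATP5L2, a relative of the ATP synthase subunit gene ATP5L, averaged 0.233 ± 0.139 FPKM in si-SMARCA4 and 0.217 ± 0.0896 FPKM in si-Cont. These 7 genes lay under the minimum and were not tested. At such read numbers no difference was detectable.

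Of the factors that assemble complex IV, 40% were lower and 30% higher, near the 33.6% and 22.4% over all genes tested. COX7A2L, which helps complexes III and IV to join into supercomplexes, had 13.9, 13.0 and 13.4 FPKM in si-SMARCA4, against 10.8, 9.40 and 10.5 FPKM in si-Cont (log2 fold change of 0.36, SE 0.06, limma adjusted p = 0.000329). It was thus higher in every si-SMARCA4 library, while its relative COX7A2, a subunit, had 47.9, 45.2 and 45.7 FPKM in si-SMARCA4, against 54.4, 50.2 and 56.0 FPKM in si-Cont (-0.20, SE 0.06, limma adjusted p = 0.0116). COX20, a chaperone of the mtDNA-encoded subunit MT-CO2, had 7.76, 7.44 and 7.43 FPKM in si-SMARCA4, against 5.31, 5.86 and 5.60 FPKM in si-Cont (0.38, SE 0.05, limma adjusted p = 8.44e-05). Its reads are uncertain, because it shares 3502 exon bases on the opposite strand with HNRNPU, which averaged 80.8 ± 2.76 FPKM in si-SMARCA4 and 83.6 ± 4.10 FPKM in si-Cont. COX17, a copper chaperone, had 9.20, 8.15 and 8.32 FPKM in si-SMARCA4, against 8.53, 6.34 and 6.81 FPKM in si-Cont, with overlap (0.22, SE 0.09, limma adjusted p = 0.0476). The call of COX17 was lost without any 1 library other than si-Cont replicate 1 (limma adjusted p 0.0580 to 0.153).

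The lower factors of complex IV were COX14, COX15, COX11 and COX19. COX14, which acts on newly made MT-CO1, had 9.40, 9.77 and 9.61 FPKM in si-SMARCA4, against 13.5, 11.9 and 12.4 FPKM in si-Cont (-0.36, SE 0.05, limma adjusted p = 0.000225). COX15, an enzyme of heme A synthesis, had 8.48, 8.52 and 8.77 FPKM in si-SMARCA4, against 10.6, 10.2 and 10.7 FPKM in si-Cont (-0.26, SE 0.05, limma adjusted p = 0.000634). COX11, which delivers copper to MT-CO1, was lower by a log2 fold change of -0.21 (limma adjusted p = 0.0168), a call lost without si-SMARCA4 replicate 2 or si-Cont replicate 1 or 3. COX19, a factor of copper delivery, was lower by a log2 fold change of -0.19 (limma adjusted p = 0.0060). Exons of COX11 share 909 bases with TOM1L1 on the opposite strand, and those of COX19 share 1186 with ADAP1 on the same strand, so reads of both are partly uncertain. COX10, the enzyme one step before COX15 in heme A synthesis, averaged 7.45 ± 0.493 FPKM in si-SMARCA4 and 7.57 ± 0.776 FPKM in si-Cont (-0.02, limma adjusted p = 0.847). COX18, which inserts MT-CO2 into the membrane, stood at -0.13 (limma adjusted p = 0.0727), or -0.16 with a limma adjusted p of 0.0424 without si-Cont replicate 3. COX16, another factor for MT-CO2, stood at 0.06 (limma adjusted p = 0.457).

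In the ATP synthase the catalytic head and the stalk were lower throughout, and the membrane part was lower in some genes. All 5 tested genes of the F1 head, the part that makes ATP, were lower (median log2 fold change -0.35), as were all 4 of the peripheral stalk that holds it in place (-0.30). The share called lower over all genes tested was 33.6%. Of the 6 tested nuclear genes of the membrane part among the symbols chosen, 3 were lower and 0 higher (-0.17). Outside those symbols, the membrane subunit USMG5 was lower (-0.36, limma adjusted p = 0.000266), while C14orf2 did not pass (-0.14, limma adjusted p = 0.124). ATP5C1, the rotating gamma subunit, had 41.4, 40.8 and 41.0 FPKM in si-SMARCA4, against 61.6, 55.4 and 59.6 FPKM in si-Cont (-0.51, SE 0.06, limma adjusted p = 2.57e-05). This was the largest fall of complex V and of all 57 genes after SDHD_1, and the si-SMARCA4 libraries lay within 1 FPKM of each other. ATP5O, the stalk protein that touches the head, had 18.1, 16.7 and 17.4 FPKM in si-SMARCA4, against 25.8, 22.6 and 26.6 FPKM in si-Cont (-0.49, SE 0.06, limma adjusted p = 8.92e-05). ATP5E, the epsilon subunit of the rotor, had 18.2, 17.0 and 18.7 FPKM in si-SMARCA4, against 26.5, 22.7 and 25.5 FPKM in si-Cont (-0.45, SE 0.06, limma adjusted p = 0.000178). ATP5B, the catalytic beta subunit and the highest of these genes in FPKM, had 175, 169 and 177 FPKM in si-SMARCA4, against 226, 203 and 235 FPKM in si-Cont (-0.35, SE 0.07, limma adjusted p = 0.00134). Each of these 4 genes separated the groups without overlap and kept its call under every alternative. ATP5D (-0.34), the delta subunit of the rotor, ATP5A1 (-0.33), the alpha subunit, and ATP5J2 (-0.34), a small membrane subunit, were also lower. In the stalk ATP5H (-0.31), ATP5J (-0.29) and ATP5F1 (-0.21) were lower, the last with a limma adjusted p of 0.0719 after quantile normalization.

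ATP5J lies head to head with GABPA, a factor that binds ETS motifs in many respiratory gene promoters, and their exons share 413 bases. GABPA was higher, at 9.26, 9.39 and 8.59 FPKM in si-SMARCA4, against 7.24, 6.56 and 6.58 FPKM in si-Cont (log2 fold change of 0.37, limma adjusted p = 0.000187), while ATP5J had 18.5, 17.3 and 16.9 FPKM in si-SMARCA4, against 22.7, 20.3 and 22.2 FPKM in si-Cont. ATP5S, coupling factor B, had 1.23, 1.19 and 1.13 FPKM in si-SMARCA4, against 1.89, 1.43 and 1.53 FPKM in si-Cont (-0.26, limma adjusted p = 0.00853), from 126 to 228 reads per library. Its exons share 1602 bases with CDKL1 on the opposite strand, so its reads are uncertain, and its call was lost with no filter on low values (limma adjusted p = 0.0526). ATP5I and ATP5L, membrane subunits where synthases pair up, did not pass. ATP5I had 71.1, 67.0 and 72.9 FPKM in si-SMARCA4, against 81.5, 70.7 and 82.9 FPKM in si-Cont (-0.15, limma adjusted p = 0.0891). ATP5L had 21.4, 19.8 and 21.4 FPKM in si-SMARCA4, against 25.1, 20.2 and 23.7 FPKM in si-Cont (-0.13, limma adjusted p = 0.159). In both genes si-Cont replicate 2 fell within the si-SMARCA4 range, and both were called lower with the replicate number as a block (limma adjusted p = 0.0164 for ATP5I and 0.0390 for ATP5L) and without that library. The promoter of ATP5C1, the largest fall of complex V, lies at chr10:7787927-7788226 (GRCh38.p14, plus strand, 5′ to 3′), and capitals mark GCATGCGC matched on both strands with overlap.
ATP5C1 promoter: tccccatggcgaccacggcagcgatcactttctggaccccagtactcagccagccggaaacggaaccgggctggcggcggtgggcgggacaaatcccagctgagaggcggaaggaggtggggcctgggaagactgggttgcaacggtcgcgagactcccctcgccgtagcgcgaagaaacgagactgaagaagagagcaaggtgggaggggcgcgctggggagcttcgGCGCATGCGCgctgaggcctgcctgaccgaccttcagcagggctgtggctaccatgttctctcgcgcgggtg

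The c subunit, which forms the rotating ring in the membrane, is encoded by 3 genes whose mature proteins are identical. ATP5G2 made up a larger share of their sum in each si-SMARCA4 library than in any si-Cont library, a difference for which the exact test of this design cannot pass 0.05. ATP5G1 had 12.4, 11.2 and 11.9 FPKM in si-SMARCA4, against 16.01, 13.4 and 14.9 FPKM in si-Cont (log2 fold change of -0.29, SE 0.07, limma adjusted p = 0.00312). ATP5G3 had 14.4, 12.8 and 13.7 FPKM in si-SMARCA4, against 16.4, 14.9 and 16.1 FPKM in si-Cont (-0.20, SE 0.06, limma adjusted p = 0.0131), a call lost without si-SMARCA4 replicate 2 (0.0753). ATP5G2, the highest of them in FPKM, had 32.5, 28.5 and 32.5 FPKM in si-SMARCA4, against 33.0, 28.4 and 34.1 FPKM in si-Cont, so that the groups overlapped throughout (-0.03, SE 0.08, limma adjusted p = 0.786). The size of each share depends on the gene lengths, such as 3991 bases for ATP5G2 and 6780 for ATP5G3, which are the same in every library. ATP5G2 made up 54.7%, 54.3% and 55.9% of their summed FPKM in si-SMARCA4, against 50.4%, 50.1% and 52.4% in si-Cont. ATP5G1 made up 21.0%, 21.4% and 20.5% in si-SMARCA4, against 24.5%, 23.7% and 22.9% in si-Cont. The within-library log2 ratio of ATP5G1 to ATP5G2 was -1.32 ± 0.05 in si-SMARCA4 and -1.06 ± 0.08 in si-Cont (SD, n = 3 each), a difference of -0.26. The ratio of ATP5G2 to ATP5G3 was 1.13 ± 0.04 in si-SMARCA4 and 0.96 ± 0.08 in si-Cont, a difference of 0.17. The ratio of ATP5G1 to ATP5G3 was -0.19 ± 0.01 in si-SMARCA4 and -0.09 ± 0.06 in si-Cont, a difference of -0.09. The groups did not overlap in any of the 3 ratios, and the two-sided exact permutation p was 0.1 for each, also after adjustment over the 3, which is the smallest value possible.

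**Figure D5:**
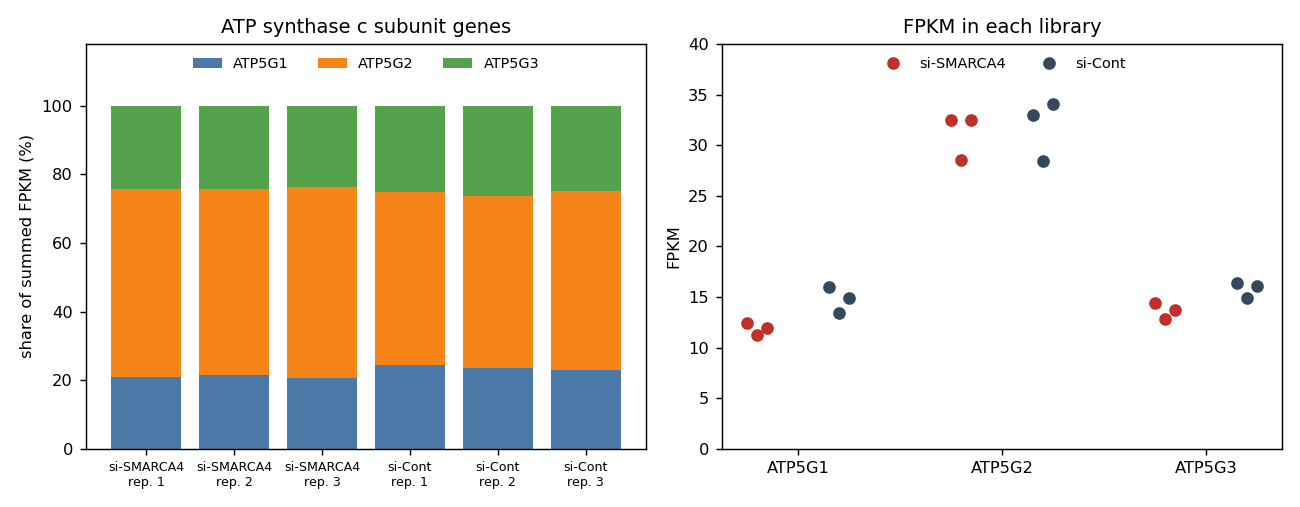
Left, share of the summed FPKM (y axis, %) of the 3 genes of the ATP synthase c subunit in each library, 3 si-SMARCA4 libraries left of 3 si-Cont libraries; right, their FPKM (y axis, from 0) by library and group. The ATP5G2 share is 54.3% to 55.9% in si-SMARCA4 and 50.1% to 52.4% in si-Cont, while ATP5G1 and ATP5G3 are lower in FPKM.

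The 3 genes that match by name only were COX10-AS1, lower at 0.930, 0.909 and 0.872 FPKM in si-SMARCA4, against 1.39, 1.17 and 1.31 FPKM in si-Cont (log2 fold change of -0.27, limma adjusted p = 0.00251), and 2 that did not pass, ATP5SL (-0.14, limma adjusted p = 0.0958) and ATP5J2-PTCD1 (-0.09, limma adjusted p = 0.301). COX10-AS1 reached the minimum mean of 1 FPKM only through si-Cont, and such a filter favours a lower call. The counts of lower genes include it. With no filter on low values it was still called lower (limma adjusted p = 0.0139). ATP5SL passed with the replicate number as a block (0.0194) and without si-Cont replicate 2 (0.00562), and ATP5J2-PTCD1 without si-SMARCA4 replicate 1 (0.0484).

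The mtDNA-encoded partners of complexes III, IV and V did not pass the test. Limma called 0 of these 6 genes, with 0 at an unadjusted p under 0.05, while voom on recovered reads called 2 lower. Of all genes tested, limma called 33.6% lower and 22.4% higher. MT-CO1, the catalytic subunit of complex IV, had 1323, 1319.8 and 1327.5 FPKM in si-SMARCA4, against 1472, 1479 and 1453 FPKM in si-Cont (log2 fold change of -0.15, limma adjusted p = 0.0890). MT-CO3 had 2410.1, 2259 and 2298 FPKM in si-SMARCA4, against 2728, 2465 and 2638 FPKM in si-Cont (-0.17, limma adjusted p = 0.0983). In both genes the groups did not overlap, and the 2 were called lower with the replicate number as a block (limma adjusted p = 0.0354 for MT-CO1 and 0.0287 for MT-CO3), by voom and without si-Cont replicate 2, where MT-ATP6 was called higher. MT-CO2, which takes electrons from cytochrome c, averaged 2108 ± 48.9 FPKM in si-SMARCA4 and 2021 ± 136 FPKM in si-Cont (0.06, limma adjusted p = 0.539). MT-CO2 was called higher under upper-quartile scaling (0.13, limma adjusted p = 0.0384), quantile normalization (0.39, limma adjusted p = 2.14e-06) and the block with the length trend removed (0.19, limma adjusted p = 0.00168). Quantile normalization sets each value by its rank in the library. The hepatocyte marker ALB (mean 1425 FPKM in si-SMARCA4 and 2269 FPKM in si-Cont) ranked above MT-CO2 in every si-Cont library and below it in every si-SMARCA4 library. The part of this change of rank in the 0.39 was not tested. MT-CYB, cytochrome b, averaged 313 ± 6.52 FPKM in si-SMARCA4 and 322 ± 40.9 FPKM in si-Cont (-0.03, limma adjusted p = 0.763). MT-ATP6 and MT-ATP8, the membrane subunits of the ATP synthase, stood at 0.07 and 0.03 (limma adjusted p = 0.482 and 0.839). MT-ATP6 was called higher after quantile normalization (0.29) and both were called higher with the block and the length trend removed (0.20 for MT-ATP6 and 0.22 for MT-ATP8). MT-ATP6 and MT-ATP8 share part of their sequence, so their reads cannot be fully separated. The direction of MT-CYB turned under each rescaling.

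Other proteins of complexes II to V, listed by role outside the symbols above, were counted in the same way. Of 39 listed symbols 32 matched and 31 were tested, with 14 lower and 2 higher and a median log2 fold change of -0.14, beside 33.6% lower, 22.4% higher and a median of -0.04 over all genes tested. HIGD1A, a factor of complex IV and of supercomplexes, had 12.5, 13.6 and 12.2 FPKM in si-SMARCA4, against 21.5, 18.6 and 20.1 FPKM in si-Cont (-0.62, SE 0.06, limma adjusted p = 1.59e-05). C16orf91, a factor of complex III, had 3.68, 4.26 and 3.52 FPKM in si-SMARCA4, against 6.11, 5.24 and 5.77 FPKM in si-Cont (-0.48, SE 0.07, limma adjusted p = 0.000150). ATPAF1, which helps the beta subunit into the ATP synthase head, had 4.86, 4.13 and 4.72 FPKM in si-SMARCA4, against 3.10, 3.05 and 3.44 FPKM in si-Cont (0.41, SE 0.06, limma adjusted p = 0.000232). The groups of these 3 genes did not overlap. C16orf91 and ATPAF1 were picked, with HIGD1A, as the largest changes of the list. The list also holds PET112, whose product acts in mitochondrial translation rather than in a complex.

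Among nuclear regulators of respiratory genes, 13 of 14 were tested, with 2 lower and 4 higher and a median of 0.07, beside 33.6% lower and 22.4% higher over all genes tested. PPARGC1A, a coactivator of mitochondrial biogenesis, had 0.802, 0.901 and 0.837 FPKM in si-SMARCA4, against 1.16, 1.24 and 1.20 FPKM in si-Cont (log2 fold change of -0.25, SE 0.05, limma adjusted p = 0.00251), from 269 to 403 reads per library. PPARGC1A reached the minimum mean of 1 FPKM only through si-Cont, and such a filter favours a lower call. The count of 2 lower regulators includes it. PPARGC1A was still called lower with no filter on low values. The other lower gene was TFB1M, which modifies mitochondrial ribosomal RNA (-0.27). The higher ones were GABPA (0.37) and its partner GABPB1 (0.33), TFB2M, a mitochondrial transcription factor (0.30), and TWISTNB, a subunit of RNA polymerase I that does not act on respiratory genes by its known role (0.27). NRF1, the factor that binds the motif shown in the promoters, averaged 3.39 ± 0.266 FPKM in si-SMARCA4 and 3.36 ± 0.143 FPKM in si-Cont (0.01, limma adjusted p = 0.921). ESRRA, a nuclear receptor of mitochondrial genes, averaged 11.2 ± 0.25 FPKM in si-SMARCA4 and 10.3 ± 0.906 FPKM in si-Cont (0.12, limma adjusted p = 0.121). TFAM, which packages and transcribes mtDNA, averaged 12.6 ± 0.404 FPKM in si-SMARCA4 and 11.9 ± 0.275 FPKM in si-Cont (0.07, limma adjusted p = 0.212). ESRRA and TFAM were called higher under each of the 3 rescalings and by voom, where 6 or 7 of these 13 regulators were higher.

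What the genes shared in sequence was described with no test. RefSeq promoters (GRCh38.p14) matched 44 of the 54 tested genes of complexes II to V, and the letters were searched on both strands. GCATGCGC of NRF1 was in 13 of these 44 promoters (29.5%), against 5.99% of the promoters of 8794 tested genes and 3.27% of 27305 promoters in all. CCGGAAG of the ETS family was in 18 (40.9%), against 21.5% of tested genes and 10.7% of all. AAGATGGC of YY1 was in 7 (15.9%), against 5.96% of tested genes and 3.03% of all. Of the 13 genes with the NRF1 letters 7 were lower, 1 was higher and 5 did not pass, and of the 31 without them 23 were lower, 3 higher and 5 did not pass. Of the 18 genes with the ETS letters 13 were lower, and of the 26 without them 17 were lower. Of the 7 genes with the YY1 letters 6 were lower, and of the 37 without them 24 were lower. Over all genes tested 33.6% were lower and 22.4% higher. Calls by these letters were not counted over all genes, so the member counts give no effect of a motif. The promoters shown above hold the NRF1 letters in SDHD_1, UQCC2 and ATP5C1 and the ETS letters in SDHD_1 and COX8A. A match describes these letters in this window and no binding.

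The 3′ UTR sequence TGTCCA was in 14 of the 54 tested genes of complexes II to V, of which 9 were lower (64.3%, median log2 fold change -0.20). Of the 40 genes without it 30 were lower (75%, median -0.27). Over all genes tested, 39.8% of those with the sequence and 30.6% of those without it were lower. The sequence was picked from the same fold changes, so this difference follows from that choice and is a description only. The length of the 3′ UTR was not taken into account. Genes with a site and no fall past the threshold included SDHC, SDHAF2, CYCS and COX10, and UQCC1, which was higher. Whether these cells express the transcripts that hold the sites was not examined.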

How the data were processed

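RNA sequencing values of 6 Hep3B libraries were used, grouped by the treatment and replicate number in the sample titles (3 si-SMARCA4, 3 si-Cont). The authors deposited FPKM for 57773 genes. The genome build was hg19, per the submitters' processing notes, while no source used here names the aligner, counting program, annotation or strandedness. FPKM scales reads by gene length and by 1 denominator per library, so a level is relative to all other reads of that library.

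Whole reads and gene lengths could be recovered from the steps between FPKM values for each of the 25119 genes above 0 (100%, relative tolerance 1e-08), and gave 19084308 to 22719014 reads over genes in a library. These reads carry no known molecular identifiers, so duplicates of 1 molecule may be among them. In a chi-square test of those reads, statistics per degree of freedom were 2.01 to 2.27 within si-SMARCA4, 2.98 to 10.0 within si-Cont and 38.7 to 46.9 between groups, so no library repeated another.

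Genes with a mean of at least 1 FPKM (11123) were compared on log2(FPKM + 1), a scale that understates the change of genes with low values, by a limma model with a mean-variance trend (version 3.58.1, R 4.3.3; two-sided, Benjamini-Hochberg adjustment over all genes tested, threshold 0.05). The procedure was tested on simulated data. Exact permutation tests were two-sided. Libraries with the same replicate number, taken from the titles, deviated together from their group means (correlations 0.215, 0.181 and 0.162), so they were treated as pairs in an alternative fit that holds the number as a block. Other alternatives were pseudocounts, filters, scalings, limma settings, voom on recovered reads, removal of a gene length trend, exclusion of genes with TGTCCA in the 3′ UTR, summed rows of 1 symbol, a stricter threshold and leaving out each library. A fit without 1 library leaves 2 in that group.

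The genes and lists were chosen with earlier results of these data known, so no p-value is given for a list. Genes named were SDHA to SDHD, the 4 largest changes past the threshold in each direction per complex with groups that did not overlap, the ATP5G genes, isoform genes, every tested gene that did not pass and every gene under the minimum. The remaining genes past the threshold, TFB1M, GABPA, GABPB1, TFB2M, TWISTNB, CD68, LUM, LYZ, KRT19, SOX9 and genes that overlap others were named after their values were seen. Promoters are from RefSeq on GRCh38.p14, matched through Ensembl identifiers and symbols. Gene positions, exon overlaps and 3′ UTRs are from GENCODE on GRCh38 and were not mixed with the authors' hg19 values. Other steps ran in Python 3.11.15 (scipy 1.17.1).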

Additional observations from a re-analysis of the deposited data

How the results depend on the processing

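Of the 40 genes called lower, COX10-AS1 included, 30 kept the call in every alternative that gave them a value and 10 lost it in at least 1, and no called gene turned sign. The replicate number as a block gave 44 lower and 4 higher, and 2 mtDNA-encoded genes lower. Among the 70 single genes examined it changed the call of UQCR10, ATP5I, ATP5L, ATP5SL, MT-CO1 and MT-CO3 and of no other. At an adjusted p of 0.01 there were 2 genes higher, 2 lower in complex II and 9 lower in complex IV. With no filter on low values there were 2 higher and 2 lower in complex II, and the median less that of all genes was -0.24. Genes at a mean of at least 5 FPKM gave 2296 lower and 1387 higher over all genes, 0 regulators lower and 0 of the other subunits and assembly factors higher. The 2 regulators called lower and the 2 other genes called higher in the main fit lay under that mean and were not tested there. A pseudocount of 5 gave a median of -0.19, or -0.17 less that of all genes, and 2 mtDNA-encoded genes lower, as did voom and limma without a trend (2 each). Without genes that hold TGTCCA in the 3′ UTR there were 2175 lower over all genes, 2 of the genes chosen higher, 2 lower in complex II, 1 regulator lower, and 6 lower and 1 higher of the other subunits and assembly factors, with a median less that of all genes of -0.24. That setting tests fewer genes.

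Rescaling moved medians toward 0. Median-ratio scaling gave -0.20 for all 57 genes, -0.22 for complex III and -0.16 for complex IV, with 4 of the other subunits and assembly factors higher. Less that of all genes, the median of the 57 was -0.199 under median-ratio scaling and -0.204 in the main fit. Upper-quartile scaling gave -0.18 for all, -0.20 for III, -0.14 for IV and -0.24 for V, with 2 lower in complex II, 1 mtDNA-encoded gene, 7 regulators and 4 other subunits and assembly factors higher. Quantile normalization gave -0.15 for all (-0.16 less that of all genes), -0.17 for III, -0.089 for IV and -0.22 for V, with 7 genes, 2 mtDNA-encoded genes and 7 regulators higher. The block with the gene length trend removed gave -0.20 for all, -0.13 for II, -0.22 for III, -0.14 for IV and -0.23 for V, with 3 mtDNA-encoded genes higher. The cause of these shifts was not tested.

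Leaving out each library in turn gave 32 to 45 lower and 2 to 4 higher with medians of -0.29 to -0.21, or -0.23 to -0.18 less that of all genes. It gave 2 to 5 lower in complex II (-0.27 to -0.16), 8 to 9 in III (-0.32 to -0.25), 9 to 14 lower and 2 to 3 higher in IV (-0.27 to -0.18) and 12 to 15 lower in V (-0.35 to -0.28). Of the mtDNA-encoded genes 0 to 2 were lower and 0 to 1 higher, and of the other subunits and assembly factors 10 to 20 were lower. The ratios of ATP5G1 to ATP5G2 (-0.31 to -0.23), ATP5G1 to ATP5G3 (-0.12 to -0.06) and ATP5G2 to ATP5G3 (0.13 to 0.21) kept their direction without any 1 library.

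Of 1370 comparisons of single genes with an alternative, 29 turned direction, all in genes that had not passed. ATP5G2 stood at 0.025 under median-ratio scaling, 0.041 under upper-quartile scaling, 0.11 under quantile normalization, 0.023 with the block and length trend and 0.0050 by voom. COX10 stood at 0.030, 0.044, 0.020, 0.047 and 0.0085 under the same settings. MT-CYB stood at 0.020, 0.036, 0.15 and 0.068 under the first 4 of them, and SDHC at 0.026 under quantile normalization. Over the fits without 1 library, ATP5G2 ranged from -0.10 to 0.033, COX10 from -0.095 to 0.030, MT-CYB from -0.099 to 0.067, MT-ATP8 from -0.092 to 0.12, NRF1 from -0.029 to 0.057 and UQCRFS1 from -0.0072 to 0.084. Depth limited what COX6B2 and COX7A1 could show, with at most 5 and 2 reads in a library.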
